A study of Mus musculus with 45 samples.

Results

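The genes described here are 3 fibroblast growth factor (FGF) receptors, 2 FGF ligands and 5 genes that FGF signalling switches on. They were taken as the rows of the deposited tables whose gene symbol was Fgfr1, Fgfr2, Fgfr3, Fgf9, Fgf18, Spry1, Spry2, Spry4, Dusp6 or Etv4, and all 10 were found among 36300 genes. Each of the 10 is protein coding, is listed in all 9 deposited tables and passed the filter on low counts in every comparison.

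RNA was sequenced from forelimb buds of CD1 mouse embryos, an outbred stock, taken on gestation day 13 and kept in organ culture with dimethyl sulfoxide as vehicle or with bisphenol A (BPA) at 10 or 50 µM, a plastics monomer that binds estrogen receptors. Cultures ended after 3, 24 or 48 h, which gave 9 groups of 5 libraries each and 45 libraries in all. Every culture, vehicle included, was kept in a BGJb-based medium with ascorbic acid and gentamycin, forelimbs were pooled, and limbs of both sexes shared a culture. The 50 µM libraries that are titled 3 h carry a treatment length of 24 h in another label, and the treatment text of every library speaks of 3 h. The titles were followed for all groups. The labels do not tie the 5 libraries of a group to separate litters or culture days, and the spread that the p-values rest on may therefore be technical in part.

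Libraries held between 17.54 M and 27.12 M counts. The labelled tissue was checked against its markers: Tbx5, which marks the forelimb, lay between 201 and 347 CPM (counts scaled to a common library size), and the hindlimb genes Tbx4 and Pitx1 lay between 15.8 and 27.6 and between 1.61 and 7.30 CPM. Fgf8, the ligand of the apical ectodermal ridge, reached at most 1.905 CPM and was at 0 in 3 libraries, and Bglap, a gene of mature osteoblasts, was at 0 in 8. Epidermal RNA varied within groups: the basal keratin gene Krt14 lay between 3.03 and 438 CPM, and the summed level of 12 epidermal markers ranged from 101 to 1592 CPM among the 5 vehicle libraries of 24 h.

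FGFs are secreted proteins that bind receptor tyrosine kinases on the cell surface, which then switch on the Ras-ERK cascade. The cascade induces its own brakes: Sprouty proteins, which dampen signalling between the receptor and ERK, and Dusp6, a phosphatase that inactivates ERK. Etv4 is a transcription factor of the ETS family whose transcription rises with FGF signalling in limb buds. In growing cartilage, Fgfr3 is known for restraining the division of chondrocytes, Fgf9 and Fgf18 are among its ligands, Fgfr1 is prominent in hypertrophic cells and limb mesenchyme, and Fgfr2 in the condensing mesenchyme and the perichondrium.

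On genome build mm10 the receptors were deposited at chr8:25513654-25575718 for Fgfr1 (ENSMUSG00000031565, plus strand), chr7:130162451-133123350 for Fgfr2 (ENSMUSG00000030849, minus strand) and chr5:33721674-33737068 for Fgfr3 (ENSMUSG00000054252, plus strand). The ligands lie at chr14:58070547-58112720 (Fgf9, ENSMUSG00000021974, plus strand) and chr11:33117430-33147400 (Fgf18, ENSMUSG00000057967, minus strand). The inhibitors lie at chr3:37639947-37644598 (Spry1, ENSMUSG00000037211, plus strand), chr14:105891947-105896819 (Spry2, ENSMUSG00000022114, minus strand) and chr10:99263231-99267489 (Dusp6, ENSMUSG00000019960, plus strand). Etv4 (ENSMUSG00000017724) lies at chr11:101769742-101785371 on the minus strand. The deposited model of Fgfr2 is unusually long and overlaps 61 other listed genes, 32 of them on its own strand. No source used here says whether counting used strand, reads in shared exons cannot be told apart, and the values of Fgfr2 carry that uncertainty.

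RefSeq promoter windows on GRCm38.p6, the build of mm10, were matched by symbol for 7 of the 10 genes and not for Fgfr1, Spry4 and Etv4. A window runs from 250 bases before to 50 bases after a start site, and Fgfr3 has 2. The bases before the deposited gene start are printed for 4 genes that carry the results below: Fgfr3, which rose at every time with 50 µM, Fgf18, which rose at 3 h and fell at 48 h, and the inhibitors Spry1 and Spry2, which fell. Capitals mark GGGCGG on either strand, the GC box bound by Sp factors.
Fgfr3, chr5:33721474-33721673, plus strand: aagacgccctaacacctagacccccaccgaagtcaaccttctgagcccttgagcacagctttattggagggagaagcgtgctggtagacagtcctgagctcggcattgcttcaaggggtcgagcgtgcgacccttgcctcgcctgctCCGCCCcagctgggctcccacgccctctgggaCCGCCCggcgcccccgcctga
Fgf18, chr11:33147401-33147650, minus strand: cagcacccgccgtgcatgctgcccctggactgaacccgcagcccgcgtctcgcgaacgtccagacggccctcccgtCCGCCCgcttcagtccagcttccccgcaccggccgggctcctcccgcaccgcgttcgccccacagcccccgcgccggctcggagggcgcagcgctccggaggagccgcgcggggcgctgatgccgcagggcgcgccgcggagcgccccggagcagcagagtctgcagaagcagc
Spry1, chr3:37639697-37639946, plus strand: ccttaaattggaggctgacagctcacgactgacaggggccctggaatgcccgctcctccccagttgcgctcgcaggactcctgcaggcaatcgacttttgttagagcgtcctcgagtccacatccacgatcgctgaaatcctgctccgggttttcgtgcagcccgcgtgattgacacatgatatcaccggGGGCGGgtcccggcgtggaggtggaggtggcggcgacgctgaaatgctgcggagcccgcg
Spry2, chr14:105896820-105897069, minus strand: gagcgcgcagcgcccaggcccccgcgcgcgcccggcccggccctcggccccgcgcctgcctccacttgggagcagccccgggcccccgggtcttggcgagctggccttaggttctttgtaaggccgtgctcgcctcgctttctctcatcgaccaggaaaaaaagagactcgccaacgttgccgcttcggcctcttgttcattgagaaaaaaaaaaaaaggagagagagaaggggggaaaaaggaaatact

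The printed stretches hold 65.0% G and C for Fgfr3, 77.2% for Fgf18 and 62.4% each for Spry1 and Spry2. The Fgfr3 stretch also overlaps an exon of G630022F23Rik on the other strand, and that of Spry1 an exon of Gm42922. A GC box starts 60 bases before the RefSeq start site in Spry1, 174 before it in Fgf18, and 103 and 71 before it in the printed Fgfr3 stretch, whose RefSeq start lies 50 bases inside the deposited gene. Another box of that Fgfr3 window starts 31 bases before its RefSeq start, outside the printed bases. In the other Fgfr3 window boxes start 87 and 82 bases before the start. The windows of Fgfr2, Dusp6, Fgf9 and Spry2 hold no GC box. Of all 32851 promoter windows, 35.7% hold GGGCGG, and 32.7% hold it before the start. The ETS letters CCGGAA were found in 1 window among the 7 genes, that of Spry2, after its start site and outside the printed bases, against 14.9% of all windows. AGGAAG, the PEA3 letters that ETS factors of the Etv4 family bind, was found before the start of Fgfr2 and Dusp6. Of all windows, 29.5% hold it before the start and 35.4% anywhere. The AP-1 letters TGANTCA (7.81% of all windows), the cyclic AMP element TGACGTCA (1.79%) and the CArG box of serum response factor (1.63%) had no match in the windows of these 7 genes. Both strands were searched for all 6 motifs, the printed stretches hold no match of a motif other than the GC box, and a match is a description of letters alone.

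Per length, on the authors' FPKM scale, Fgfr1 and Fgfr3 were the most abundant of the 10 genes and Fgf9 the least. Mean FPKM over all 45 libraries was 46.5 for Fgfr1, 32.7 for Fgfr3 and 19.9 for Fgfr2, against 25.7 for Fgf18 and 3.50 for Fgf9. Among the feedback genes Spry2 stood highest at 30.1 FPKM, followed by Spry1 at 15.3, Dusp6 at 14.7, Spry4 at 6.72 and Etv4 at 4.38. The lowest count of any of the 10 genes in any library was 138, for Etv4. Levels of a single gene are given below in CPM scaled over all 45 libraries, as mean ± SD of 5 libraries unless single values are listed.

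A gene is said to have risen or fallen where edgeR's quasi-likelihood test gave a Benjamini-Hochberg adjusted p below 0.05 over all genes tested. At 3 h 2 genes rose (Fgfr3 and Fgf18) and 0 fell, where 1.44% of all genes were called, 0.907% higher and 0.530% lower. Both lay above vehicle in all 5 libraries, as did 2.47% of all genes. At 24 h Fgfr3 and Fgfr2 rose and Fgf9, Spry1 and Spry4 fell, 5 of 10, where 3.69% of all genes were called, 1.44% higher and 2.24% lower. The groups of all 5 were apart, as were those of 2.29% of all genes on the higher and 2.91% on the lower side. At 48 h Fgfr3 and Fgfr2 rose and 6 genes fell, namely Fgf9, Fgf18, Spry1, Spry2, Spry4 and Etv4, 8 of 10, where 9.53% of all genes were called, 4.06% higher and 5.46% lower. The groups of Fgf9 and Etv4 overlapped there and those of the other 6 were apart, against 4.43% of all genes apart on the higher and 4.72% on the lower side. Dusp6 and Fgfr1 were called at none of the 3 times. The median log2 fold change of the 10 genes was 0.0045 at 3 h, -0.22 at 24 h and -0.36 at 48 h, against medians of all genes between -0.0049 and -0.0009. The 10 genes were picked with earlier results of these data known, so their share beside that of all genes is a description only. Same-numbered vehicle and 50 µM libraries of 48 h deviated together, and with the replicate number as a block Dusp6 also passed at 48 h, with a log2 fold change of -0.20 and an edgeR adjusted p of 0.0287, which made 9 of 10 genes and 2794 of all genes in place of 1594.

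**Figure D1:**
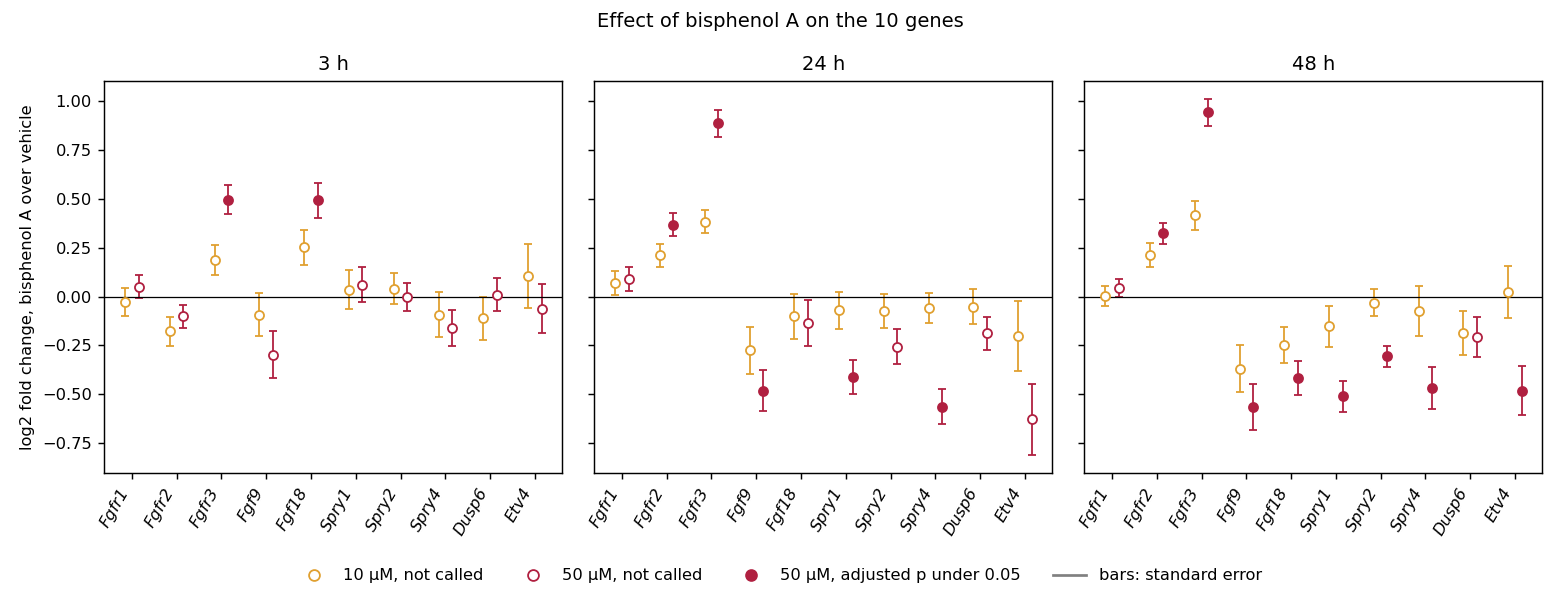
Log2 fold change of each of the 10 genes (vertical axis) with 10 µM and 50 µM bisphenol A over vehicle at 3, 24 and 48 h, with standard errors as bars and points filled where the edgeR adjusted p was below 0.05. Fgfr3 is the highest point of both doses at 24 and 48 h, and the points of Fgf9, the Sprouty genes and Etv4 with 50 µM lie below 0 at those times.

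Fgfr3 had the largest range of the 10 genes. Its mean ran from 106 ± 9.79 CPM for vehicle at 3 h to 430.3 ± 27.8 CPM with 50 µM at 48 h, a ratio of 4.05. At 3 h the vehicle libraries, in replicates 1 to 5, held 95.45, 108, 112, 96.9 and 118 CPM, the 10 µM libraries 125, 113, 114, 134 and 121 CPM, and the 50 µM libraries 137, 156, 148, 143 and 168 CPM. All 5 libraries of the higher dose lay above all 5 of vehicle, while the lower dose overlapped vehicle. The rise with 50 µM was 1.41-fold (log2 0.50 ± 0.07 SE, edgeR adjusted p = 0.000849).

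At 24 h Fgfr3 stood at 204, 204, 177, 184 and 190.4 CPM in vehicle, at 255, 243.1, 257, 267 and 226 CPM with 10 µM and at 385, 375, 361, 337 and 317 CPM with 50 µM. The 3 groups did not overlap one another. Against vehicle, 50 µM gave a 1.85-fold rise (log2 0.89 ± 0.07 SE, edgeR adjusted p = 4.11e-06). At 48 h the values were 221, 228, 203, 258 and 201 CPM in vehicle, 257, 302, 309, 326 and 290.2 CPM with 10 µM, and 399, 407, 447, 466 and 431 CPM with 50 µM. The 50 µM libraries again lay above all others, and the lowest 10 µM library fell just under the highest vehicle library. The rise with 50 µM was 1.92-fold (log2 0.94 ± 0.07 SE, edgeR adjusted p = 2.38e-07), and Fgfr3 kept its call at all 3 times in every alternative fit that was run for 50 µM against vehicle.

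Ordered by mean, the 9 groups of Fgfr3 were vehicle, 10 and 50 µM at 3 h, then vehicle at 24 h, vehicle at 48 h, 10 µM at 24 h, 10 µM at 48 h, 50 µM at 24 h and 50 µM at 48 h. Neighbours that overlapped in single libraries were vehicle and 10 µM at 3 h, vehicle at 24 and 48 h, vehicle at 48 h and 10 µM at 24 h, 10 µM at 24 and 48 h, and 10 µM at 48 h and 50 µM at 24 h. The effect of 50 µM on Fgfr3 was larger at 48 h than at 3 h by 0.45 ± 0.10 (difference of log2 fold changes ± SE, edgeR adjusted p = 0.00562). Between 24 and 3 h it differed by 0.39 ± 0.10 with an edgeR adjusted p of 0.0538, which did not pass. That difference of Fgfr3 passed with the epidermal covariate (0.0365), the replicate block (0.0458) and DESeq2 (0.0223), and in 6 fits that left out a library (0.0318 to 0.0474): vehicle replicate 1 or 4 or 50 µM replicate 5 of 3 h, or vehicle replicate 1 or 2 or 50 µM replicate 5 of 24 h.

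Fgfr2 was called at 24 and 48 h and not at 3 h. At 3 h its vehicle libraries held 212, 205, 211, 225 and 213 CPM and the 50 µM libraries 199, 202, 215, 195 and 189 CPM, which overlapped (log2 -0.10 ± 0.06 SE, edgeR adjusted p = 0.528). At 24 h vehicle stood at 184, 199, 183, 171 and 169 CPM and 50 µM at 229, 239, 236, 228 and 237 CPM, with no overlap and a 1.29-fold rise (log2 0.37 ± 0.06 SE, edgeR adjusted p = 0.00175). At 48 h the values were 203, 198, 168, 183 and 187 CPM against 246, 229.5, 235, 239 and 232 CPM, a 1.25-fold rise (edgeR adjusted p = 0.000665). The lowest vehicle level of Fgfr2 was therefore the one at 24 h, 181 ± 11.98 CPM, and the 50 µM level there was 234 ± 4.93 CPM. The effect of 50 µM at 24 h exceeded that at 3 h by 0.46 ± 0.08 (edgeR adjusted p = 0.000738), and that at 48 h exceeded it by 0.43 ± 0.08 (edgeR adjusted p = 0.0009).

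Fgfr1 was called at no time with BPA. Its means with vehicle and 50 µM were 341 ± 10.4 and 356 ± 19.8 CPM at 3 h, 475 ± 32.6 and 506 ± 11.3 CPM at 24 h, and 544 ± 3.36 and 565 ± 8.45 CPM at 48 h. The approximate 95% interval of the log2 fold change, from a normal multiplier, reached from -0.07 to 0.17 at 3 h. It reached from -0.03 to 0.21 at 24 h and from -0.04 to 0.13 at 48 h. The 5 libraries of 50 µM at 48 h, from 552 to 574 CPM, nevertheless all lay above the 5 of vehicle, from 539 to 547 CPM. Groups of 4.43% of all genes were separated in that direction there.

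The receptors therefore took different shares of their summed FPKM. In vehicle Fgfr3 made up 21.2 ± 1.71% at 3 h, 29.0 ± 1.05% at 24 h and 29.7 ± 2.07% at 48 h, and with 50 µM 27.5 ± 2.23%, 40.1 ± 2.16% and 42.8 ± 1.45%. Fgfr1 went from 49.4 ± 1.04% to 52.9 ± 1.84% between 3 and 48 h in vehicle and from 47.1 ± 1.68% to 40.8 ± 0.826% with 50 µM. Fgfr2 fell behind in both, from 29.5 ± 0.977% to 17.4 ± 1.05% in vehicle and from 25.3 ± 0.746% to 16.3 ± 0.672% with 50 µM. With 50 µM at 48 h Fgfr3 and Fgfr1 reached similar FPKM, 59.8 ± 3.90 and 56.9 ± 0.799. These shares use the deposited lengths and are given without a test.

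**Figure D2:**
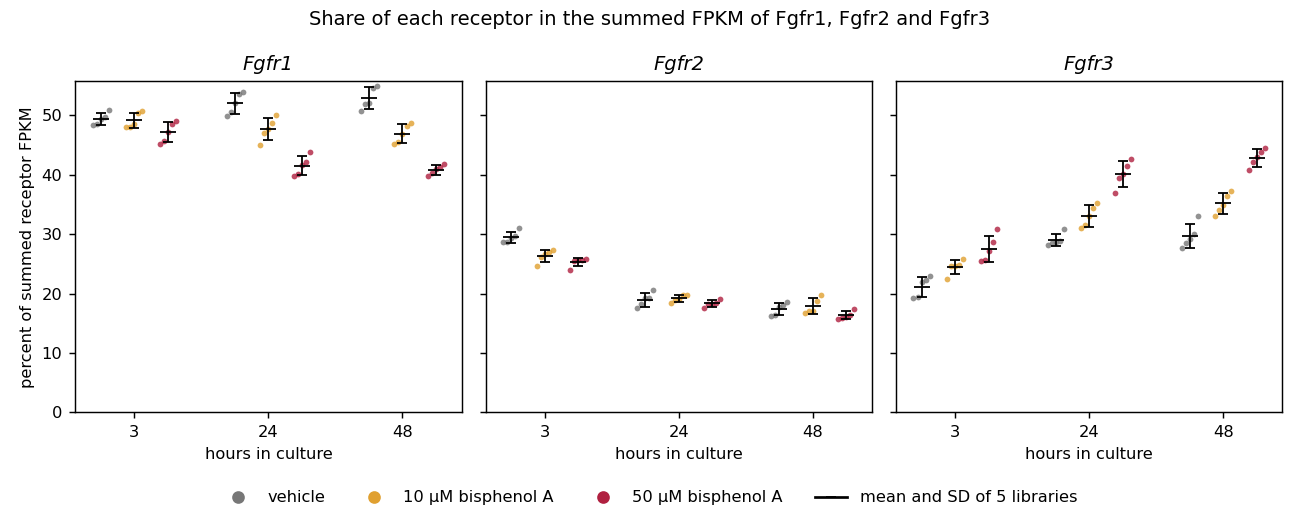
Share of Fgfr1, Fgfr2 and Fgfr3 in their summed FPKM (vertical axis, percent) by hours in culture, with 1 point per library and the mean and SD of 5 libraries. Fgfr3 reaches 42.8% with 50 µM at 48 h against 29.7% in vehicle, while Fgfr1 stands at 40.8% against 52.9%.

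Fgf18, a ligand of chondrocytes and perichondrium, changed direction with time. At 3 h the vehicle libraries held 22.5, 27.6, 23.5, 23.0 and 28.6 CPM and those with 50 µM 35.2, 36.5, 31.4, 39.6 and 34.5 CPM. Every 50 µM library was higher than every vehicle library, a 1.41-fold rise (log2 0.49 ± 0.09 SE, edgeR adjusted p = 0.00635), and the 10 µM mean of 30.01 ± 1.06 CPM lay between them. At 24 h vehicle and 50 µM overlapped, at 32.02 ± 5.84 and 29.2 ± 3.73 CPM (log2 -0.14 ± 0.12 SE, edgeR adjusted p = 0.653). At 48 h vehicle stood at 34.9, 31.2, 38.9, 40.0 and 38.7 CPM and 50 µM at 27.1, 23.5, 29.6, 30.6 and 27.8 CPM, again without overlap but now 1.33-fold lower (log2 -0.42 ± 0.09 SE, edgeR adjusted p = 0.00476). The effect at 48 h minus that at 3 h was -0.91 ± 0.15 (edgeR adjusted p = 6.72e-05), and that at 24 h minus that at 3 h was -0.63 ± 0.15 (edgeR adjusted p = 0.0188). The second difference lost its call without vehicle replicate 4 of 3 h, vehicle replicate 4 of 24 h or 50 µM replicate 4 of 3 h, with adjusted p between 0.0501 and 0.0688, and in a fit of the 4 groups alone (0.0535).

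Fgf9, the other ligand, was lower with 50 µM at the later times. At 3 h vehicle held 13.5 ± 0.943 CPM and 50 µM 11.1 ± 1.62 CPM, which did not pass (log2 -0.30 ± 0.12 SE, edgeR adjusted p = 0.296). At 24 h the vehicle libraries stood at 18.0, 22.5, 19.7, 18.7 and 21.95 CPM and those with 50 µM at 15.3, 14.9, 13.8, 15.7 and 12.6 CPM. The groups did not overlap, and Fgf9 fell 1.40-fold (edgeR adjusted p = 0.0144). Without vehicle replicate 5 the adjusted p was 0.0534. At 48 h vehicle held 22.3, 17.2, 28.3, 25.0 and 27.4 CPM and 50 µM 18.2, 15.1, 15.8, 15.4 and 17.3 CPM, where vehicle replicate 2 lay inside the treated range and the others above it. The fall was 1.48-fold (log2 -0.56 ± 0.12 SE, edgeR adjusted p = 0.00454). The difference between the effects at 48 and 3 h was -0.27 ± 0.17 and did not pass (edgeR adjusted p = 0.586).

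**Figure D3:**
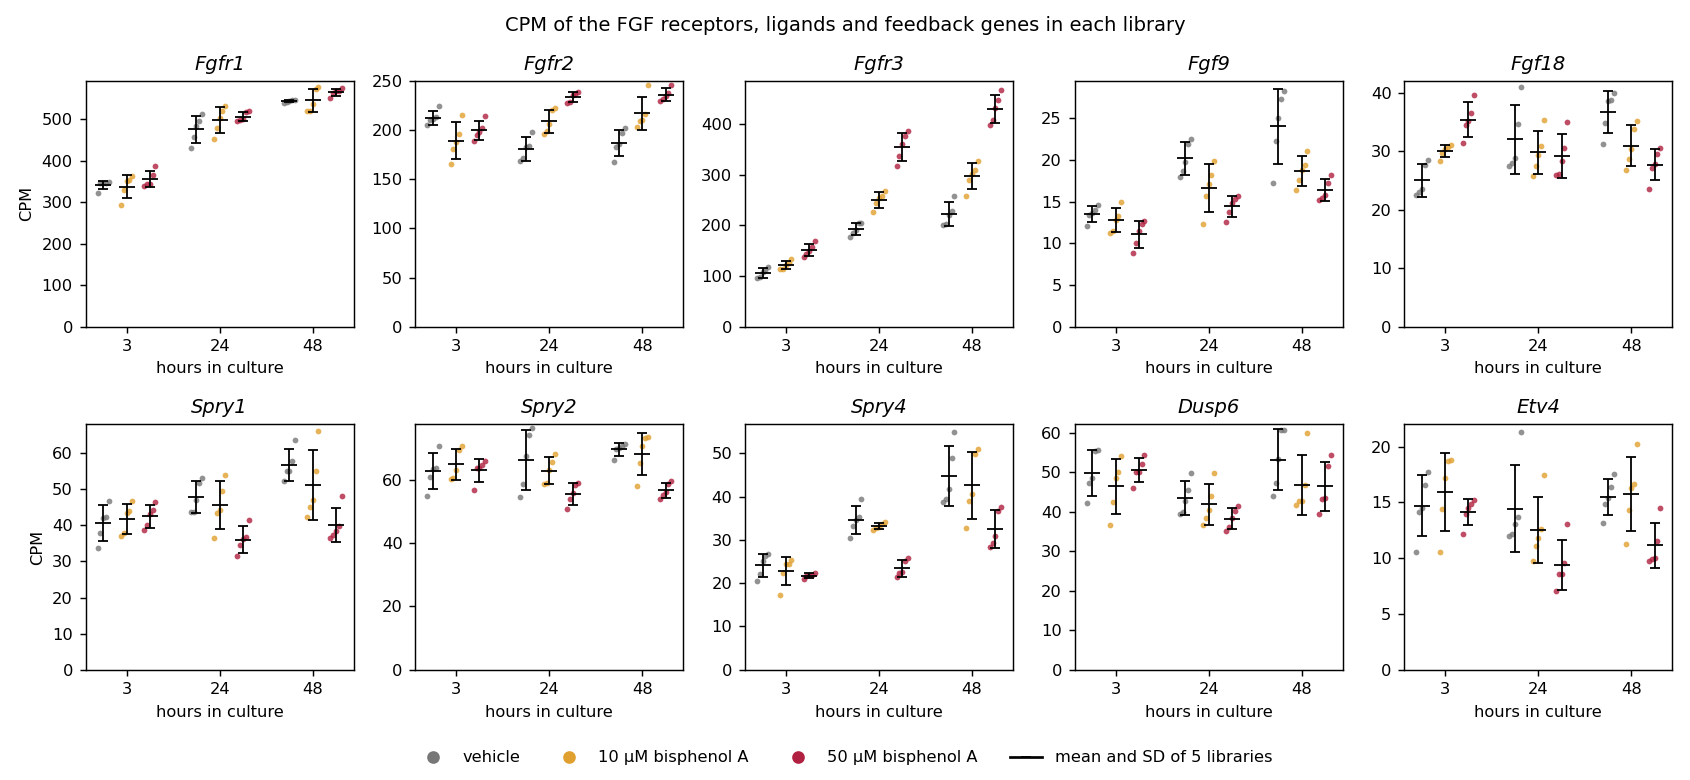
CPM of the 10 genes (vertical axis, from 0, its own scale in each panel) by hours in culture, with 1 point per library, coloured by dose, and the mean and SD of 5 libraries. Fgfr3 climbs with dose at each time up to 430.3 CPM, and the vehicle means of Fgf9, Spry1 and Spry4 are higher at 48 h than at 3 h and lie above the 50 µM means at 24 and 48 h.

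The 3 Sprouty genes showed no call at 3 h with 50 µM and lower levels later. Spry4 (ENSMUSG00000024427) lies at chr18:38586268-38601268 on the minus strand. It held 26.7, 25.0, 26.2, 20.5 and 22.2 CPM in vehicle at 3 h, where the 50 µM libraries held 21.9, 20.9, 21.6, 22.0 and 22.4 CPM (log2 -0.16 ± 0.09 SE, edgeR adjusted p = 0.501). At 24 h it held 30.5, 33.2, 34.6, 35.4 and 39.4 CPM in vehicle, 33.2 ± 0.697 CPM with 10 µM and 25.2, 25.8, 21.4, 22.3 and 22.6 CPM with 50 µM. The 50 µM group lay below both others, 1.48-fold under vehicle (log2 -0.56 ± 0.09 SE, edgeR adjusted p = 0.00175). At 48 h vehicle stood at 44.7 ± 6.96 CPM and 50 µM at 32.5 ± 4.32 CPM, a 1.38-fold difference (edgeR adjusted p = 0.0091) with no overlap. The 50 µM libraries of 48 h held 28.3, 30.9, 29.2, 37.7 and 36.6 CPM, a range that overlapped the vehicle libraries of 24 h.

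At 3 h Spry1 stood at 40.6 ± 4.98 CPM in vehicle, and the 50 µM mean was 42.5 ± 3.17 CPM. At 24 h its vehicle libraries held 53.2, 43.8, 51.7, 43.8 and 47.0 CPM and those with 50 µM 41.6, 36.3, 31.5, 36.7 and 34.4 CPM. All treated libraries were lower, and Spry1 fell 1.33-fold (log2 -0.41 ± 0.09 SE, edgeR adjusted p = 0.013). At 48 h the values were 54.98, 57.9, 52.4, 54.95 and 63.7 CPM against 36.6, 48.3, 37.3, 38.6 and 39.9 CPM, a 1.42-fold fall (edgeR adjusted p = 0.000331). The groups did not overlap there either. The effect at 48 h was lower than that at 3 h by 0.57 on the log2 scale (SE 0.14, edgeR adjusted p = 0.0181). Leaving out vehicle replicate 5 of 3 h, vehicle replicate 5 of 48 h or 50 µM replicate 1 of 48 h took that difference to adjusted p between 0.0504 and 0.0531.

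Spry2, the most abundant of the Sprouty genes per length, was called in the main fit at 48 h alone. Vehicle held 71.3, 70.1, 66.2, 69.7 and 70.6 CPM there and 50 µM 53.97, 55.99, 58.5, 59.5 and 55.2 CPM. The ranges were apart, and the fall was 1.24-fold (log2 -0.31 ± 0.05 SE, edgeR adjusted p = 0.00127). At 24 h vehicle ranged from 54.5 to 76.2 CPM and 50 µM from 50.7 to 59.1 CPM (log2 -0.26 ± 0.09 SE, edgeR adjusted p = 0.151). Spry2 passed at 24 h in edgeR's fit of all 45 libraries (adjusted p 0.0368) and with the replicate block (0.0489). At 3 h the log2 fold change lay between -0.14 and 0.14 (approximate 95% interval).

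Dusp6, the ERK phosphatase, was not called in any comparison with vehicle. Its means were 49.8 ± 5.77 CPM in vehicle and 50.5 ± 3.08 CPM with 50 µM at 3 h, 43.5 ± 4.29 and 38.2 ± 2.64 CPM at 24 h, and 53.2 ± 7.64 and 46.4 ± 6.21 CPM at 48 h. The approximate 95% interval of the log2 fold change was -0.35 to -0.03 at 24 h (edgeR adjusted p = 0.274). At 48 h it was -0.41 to -0.0042 (edgeR adjusted p = 0.251). These intervals use a normal multiplier and are narrower than edgeR's test implies. The unadjusted edgeR p at 48 h was 0.0635, so the interval of that time does not exclude an absence of change. The blocked fit given above, in which Dusp6 passed at 48 h, had nearly the same fold change.

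Etv4, the ETS factor, held 14.2, 17.7, 16.6, 10.6 and 14.5 CPM in vehicle at 3 h, where the 50 µM mean was 14.1 ± 1.21 CPM. At 24 h vehicle stood at 21.3, 11.96, 12.1, 13.1 and 13.7 CPM and 50 µM at 13.0, 8.54, 8.54, 9.54 and 7.09 CPM. Replicate 1 was the highest library of both groups, and the ranges overlapped through 50 µM replicate 1. The log2 fold change of -0.63 ± 0.18 SE was the most negative of the 10 genes at that time but had an edgeR adjusted p of 0.0712. Without 50 µM replicate 1 it was -0.77 with an adjusted p of 0.0165, and with the replicate block -0.62 with 0.00228. Etv4 was also called there without the filter (0.0108), with the epidermal covariate (0.0255), with all 45 libraries (0.0208) and with DESeq2 (0.0185). At 48 h vehicle held 15.4, 17.6, 13.2, 14.9 and 16.4 CPM and 50 µM 9.75, 14.5, 10.0, 11.6 and 9.95 CPM, with a 1.40-fold fall (edgeR adjusted p = 0.0207). That call was lost without vehicle replicate 2 or without 50 µM replicate 1, 3 or 5 (adjusted p 0.0553 to 0.0597), and in the fit of all 45 libraries (0.0846).

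Some markers of muscle, macrophages and tendon were also called lower with 50 µM at 24 and 48 h, the times when Fgf9, Spry1 and Spry4 fell. The summed level of 6 muscle markers went from 1347 ± 251.5 CPM in vehicle to 902 ± 80.7 CPM with 50 µM at 24 h and from 1804 ± 290.5 to 971 ± 168 CPM at 48 h, with 3 and 4 of 6 genes called lower. The muscle sums were 972 to 1579 CPM against 818 to 1020 CPM at 24 h and 1467 to 2185 against 698 to 1141 CPM at 48 h. The 5 macrophage markers went from 139 to 208 CPM in vehicle to 68.3 to 131 CPM at 48 h (3 of 5 called lower, 2 at 24 h and 1 at 3 h), and the 4 tendon markers from 465 to 550 to 344 to 391 CPM (2 of 4 called lower, as at 24 h). Of the 4 hypertrophic markers, 1 rose and 2 fell at 24 h, and 1 rose and 1 fell at 48 h. Of 5 osteoblast markers 1 fell at 24 h, of 7 ridge markers 1 rose at 3 h and 2 rose and 1 fell at 48 h, and of 6 forelimb mesenchyme markers 1 rose at 3 h, while the endothelial, erythroid and hindlimb lists had 0 calls with 50 µM. The 5 chondrocyte markers, which belong to the cells best known for Fgfr3, summed to 13207 ± 1805 CPM in vehicle and to 16004 ± 1812 CPM with 50 µM at 48 h, with 1 of 5, Sox9, called higher. The 12 epidermal markers had 0 calls at any time, with sums of 425 ± 289 and 387 ± 155 CPM at 48 h. Every marker of these lists was detected in at least 1 library of each group, with Ckm of the muscle list at 0 in 1 library and Sp8 of the ridge list at 0 in 4. In pooled tissue fewer cells of a type and less RNA per cell cannot be told apart, and the part of these markers in the results of the 10 genes was not tested. With the mean epidermal level as a covariate, 2, 6 and 8 of the 10 genes were called at 3, 24 and 48 h with 50 µM, against 2, 5 and 8 without it. Of all genes, 1.44%, 3.69% and 9.53% were called without the covariate. The share of all genes with it is not given here, so these counts are a description only.

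With 10 µM, 0 of the 10 genes passed edgeR's test at any time, where 0.0118% (3 h), 0% (24 h) and 0.0236% (48 h) of all genes were called. At an unadjusted p under 0.05 there were 974, 775 and 960 genes, of 17009, 17060 and 16925 tested. A share of about 0.05 of the genes tested falls there without any effect, so these counts alone show no response. DESeq2 called 14, 17 and 51. Fgfr3 came closest: its log2 fold change was 0.19 ± 0.08 SE at 3 h (edgeR adjusted p = 0.713), 0.38 ± 0.06 at 24 h (0.052) and 0.42 ± 0.07 at 48 h (0.0619). At 24 h its 10 µM libraries all lay above the vehicle libraries, a separation that 0.422% of all genes showed in that direction. DESeq2 gave adjusted p of 3.83e-05 at 24 h and 0.000297 at 48 h for Fgfr3, and the authors' deposited table lists 4.04e-05 and 0.000291. The fit of all 45 libraries gave 0.0106 and 0.00275, and edgeR with the replicate block gave 3.02e-05 and 0.00117.

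Fgfr2 was the other gene with a separation at 10 µM, at 48 h, where its libraries held 211, 246, 204, 217 and 210.0 CPM above vehicle at 168 to 203 CPM (log2 0.21 ± 0.06 SE, edgeR adjusted p = 0.491). Of all genes, 0.733% were separated in that direction. For Fgf9 the log2 fold changes with 10 µM were -0.09 ± 0.11, -0.27 ± 0.12 and -0.37 ± 0.12 SE at 3, 24 and 48 h, and none passed. The Sprouty genes, Dusp6 and Etv4 lay between -0.20 and 0.11 at 10 µM over the 3 times. Fgf18 stood at 0.25, -0.10 and -0.25 and Fgfr1 at -0.03, 0.07 and 0.0032 at 3, 24 and 48 h, also not called. The comparisons of both doses share their vehicle libraries, so their values are set side by side and not tested for likeness.

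Tested directly, 50 µM and 10 µM differed for Fgfr3 at all 3 times. The log2 difference was 0.31 ± 0.07 SE at 3 h (edgeR adjusted p = 0.0184, 0.576% of all genes called), 0.51 ± 0.07 at 24 h (6.74e-05, 0.774% called) and 0.54 ± 0.07 at 48 h (8.65e-07, 3.03% called). The difference at 3 h lost its call when 50 µM replicate 2 or 5, or 10 µM replicate 2 or 3, was left out (adjusted p 0.0555 to 0.0994), and when the 2 groups were fitted alone (0.229). Spry4 was lower with 50 than with 10 µM by 0.50 ± 0.11 at 24 h on the log2 scale (edgeR adjusted p = 0.00983), with no overlap between the groups, which held for 1.60% of all genes in that direction. At 48 h Spry1, Spry2 and Spry4 were lower with 50 µM, with log2 differences of -0.35, -0.27 and -0.39 and edgeR adjusted p of 0.0431, 0.0346 and 0.0255. These 3 calls were less firm. Leaving out a library, among them 10 µM replicate 1 or 5 for each of the 3 genes, ended the call in 6, 6 and 5 of the fits, with adjusted p up to 0.306. In a fit of the 2 groups alone Spry1 and Spry4 had adjusted p of 0.123 and 0.0936, and without the filter Spry2 had 0.0637.

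Between times, the effect of 50 µM differed for 2 of the 10 genes between 24 and 3 h (Fgfr2 and Fgf18, 0.613% of all genes called) and for 4 between 48 and 3 h (Fgfr2, Fgfr3, Fgf18 and Spry1, 1.97% called). Between 48 and 24 h edgeR called 0 of the 10 genes and 0 of all 19259 genes tested, with 619 at an unadjusted p under 0.05 and 2 genes called by DESeq2. For the genes called at both times, the approximate 95% interval of that last difference was -0.13 to 0.26 for Fgfr3 and -0.20 to 0.12 for Fgfr2. It was -0.40 to 0.25 for Fgf9, -0.38 to 0.19 for Spry1 and -0.19 to 0.39 for Spry4.

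In vehicle alone most of the 10 genes rose with hours in culture. Between 3 and 24 h 5 rose and 1 fell, where 29.9% of all genes were called, 16.3% higher and 13.6% lower. Fgfr3 rose 1.82-fold from 106 to 192 CPM (edgeR adjusted p = 1.46e-07), Fgf9 1.496-fold, Spry4 1.44-fold, Fgfr1 1.40-fold and Fgf18 1.28-fold, and Fgfr2 fell by 0.23 on the log2 scale (edgeR adjusted p = 0.00813). The Fgf18 libraries of these times overlapped, and its call (edgeR adjusted p = 0.0264) was lost without vehicle replicate 1, 3 or 4 of 3 h, without replicate 4 or 5 of 24 h, and with the epidermal covariate, with adjusted p between 0.0602 and 0.0974.

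From 24 to 48 h the vehicle libraries changed less: 8.98% of all genes were called (5.74% higher), and of the 10 genes Fgfr1 (log2 0.19 ± 0.06 SE, edgeR adjusted p = 0.0426) and Spry4 (log2 0.37 ± 0.10 SE, edgeR adjusted p = 0.0251) rose. The Fgfr1 call was lost in 9 of the 10 fits that left out a library, all but the one without vehicle replicate 2 of 24 h, with adjusted p up to 0.109. That of Spry4 was lost in 5, without replicate 2, 3 or 4 of 24 h or 4 or 5 of 48 h. Over the whole culture, from 3 to 48 h, 6 genes rose and 1 fell, where 46.6% of all genes were called, 23.8% higher and 22.8% lower. Fgfr3 rose 2.10-fold, Spry4 1.86-fold, Fgf9 1.78-fold, Fgfr1 1.60-fold, Fgf18 1.47-fold and Spry1 1.41-fold, and the libraries of both times were apart for each of them, as for 17.4% of all genes in that direction. Fgfr2 fell by 0.18 on the log2 scale (edgeR adjusted p = 0.0255), a call that was lost without vehicle replicate 4 of 3 h or replicate 3 or 4 of 48 h (adjusted p 0.0586 to 0.079), without the filter (0.0642) and with the epidermal covariate (0.0844). Spry2, Dusp6 and Etv4 had log2 changes of 0.16 ± 0.07, 0.10 ± 0.10 and 0.08 ± 0.13 SE and were not called.

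For 7 genes vehicle time and 50 µM BPA can be set side by side at 48 h. Fgfr3 was higher with both, Fgfr2 fell with time and rose with BPA, and Fgf9, Fgf18, Spry1 and Spry4 rose with time and fell with BPA. Fgfr1 rose with time and was not called with BPA. Both comparisons use the vehicle libraries of 48 h, so the directions are not independent.

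Other genes of the pathway were counted from 4 lists of 67 genes, and their calls with 50 µM are to be read beside the 1.44% (3 h), 3.69% (24 h) and 9.53% (48 h) of all genes called. Among 15 other FGF ligands, of which 10 to 12 passed the filter, 50 µM lowered Fgf10 at 3 h, Fgf6 at 24 h, and Fgf6 and Fgf4 at 48 h, and raised Fgf2 at 48 h. Fgf10, the mesenchymal ligand that drives limb outgrowth, held 28.6 to 37.7 CPM in vehicle at 3 h and 18.0 to 21.5 CPM with 50 µM, with a 10 µM mean of 24.1 ± 3.93 CPM. The vehicle and 50 µM groups were apart (log2 -0.66 ± 0.10 SE, edgeR adjusted p = 0.000843). At 24 and 48 h its log2 fold change was 0.06 and 0.15 and not called, and its effect at 24 h exceeded that at 3 h by 0.72 ± 0.13 (edgeR adjusted p = 0.00111).

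Fgf6, a ligand of skeletal muscle, and Fgf4, known in muscle and in the apical ectodermal ridge and the ridge marker counted above as lower at 48 h, were scarce. Fgf6 went from 6.23 ± 1.94 CPM in vehicle to 1.76 ± 0.277 CPM with 50 µM at 24 h and from 7.60 ± 3.41 to 1.93 ± 0.449 CPM at 48 h, and Fgf4 from 2.51 ± 1.05 to 0.561 ± 0.280 CPM at 48 h. Both passed edgeR's test there (adjusted p 0.00028 and 0.000962), and the muscle markers above were lower in the same libraries. The part of muscle in these values was not tested. Fgf2 rose 1.22-fold at 48 h to 76.5 ± 5.08 CPM (edgeR adjusted p = 0.0107).

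Of 16 other receptors, co-receptors and adaptors, 15 were tested at 48 h, and 2, Fgfr4 and Sos1, rose with 50 µM, where 4.06% of all genes rose, by log2 0.37 ± 0.09 and 0.22 ± 0.06 SE, and none was called at 3 or 24 h. Fgfr4, the fourth receptor of the family, went from 51.3 ± 7.38 to 66.7 ± 6.05 CPM (edgeR adjusted p = 0.0153), and Sos1 is the exchange factor that loads Ras. Of 17 genes of the Ras-ERK cascade, Ksr1, a scaffold of Raf and MEK, and Hras fell at 48 h, where 5.46% of all genes fell (log2 -0.37 ± 0.08 and -0.29 ± 0.08 SE), with 0 calls earlier and list medians between -0.05 and -0.02. Of 19 other ERK targets and inhibitors, Etv5 fell at 24 and 48 h and Spred3, a Sprouty relative, at 48 h, with 0 rises at any time.

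Etv5, the close relative of Etv4, was called at both later times. Its vehicle libraries held 109, 106, 105, 114 and 118 CPM at 24 h and those with 50 µM 80.5, 85.6, 74.4, 78.9 and 80.3 CPM, with no overlap (log2 -0.47 ± 0.06 SE, edgeR adjusted p = 0.000347). At 48 h the ranges were 105 to 123 and 80.9 to 92.4 CPM (log2 -0.43 ± 0.06 SE, edgeR adjusted p = 8.73e-05), and at 3 h the log2 fold change was 0.02 ± 0.08. The effect at 24 h was lower than at 3 h by 0.49 on the log2 scale (edgeR adjusted p = 0.00424), and with 10 µM Etv5 stood at -0.21 ± 0.06 at 24 h and -0.205 ± 0.06 SE at 48 h, not called. With 10 µM 0 genes of the 4 lists were called.

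**Figure D4:**
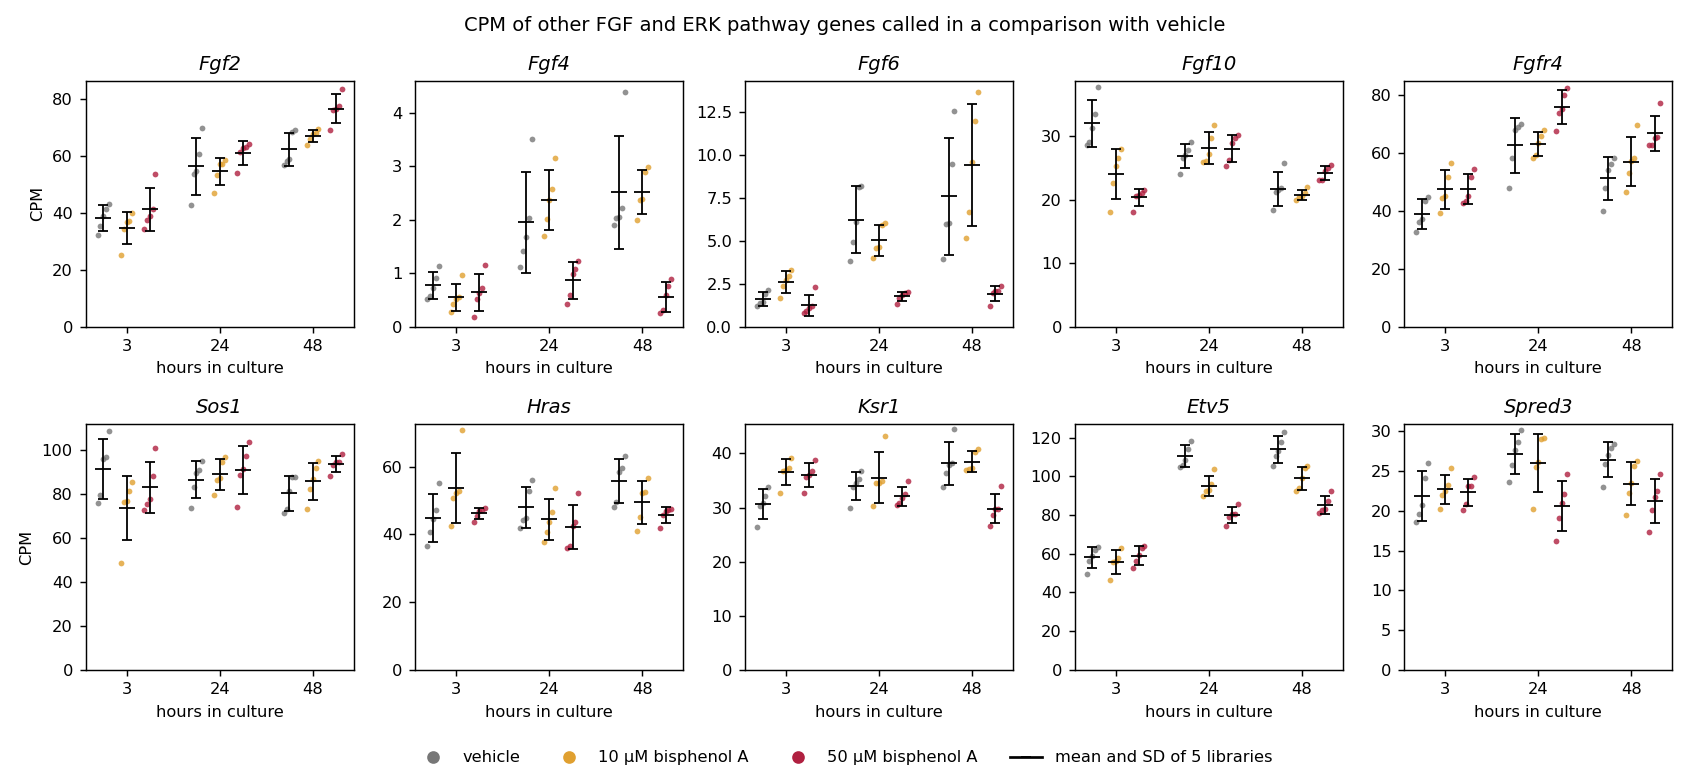
CPM (vertical axis, from 0, its own scale in each panel) of the 10 genes outside the main set that were called in a comparison with vehicle, by hours in culture, with 1 point per library, coloured by dose, and the mean and SD of 5 libraries. Etv5 climbs in vehicle from 58.1 CPM at 3 h to 110.4 CPM at 24 h and stands at 79.9 CPM with 50 µM at 24 h, and Fgf10 is lowest with 50 µM at 3 h.

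For the 3 genes whose 9 group means spanned at least 1 log2 unit, the genes of most similar pattern were sought among 15431 protein-coding genes by the root mean square difference of centred group means of log2 CPM. For Fgfr3 they were Kcns3, a potassium channel subunit, at 0.154, Dkk3, a secreted Dickkopf relative, at 0.159, and Ihh, the hedgehog signal of prehypertrophic chondrocytes, at 0.168. Ihh went from 21.8 CPM in vehicle at 3 h to 40.1 in vehicle and 72.7 CPM with 50 µM at 48 h. It is also on the hypertrophic list above, whose mean sum was lower with 50 µM than in vehicle at 48 h. For Fgf9 they were Fam155a (0.0855), Rasa4, a Ras GTPase-activating protein (0.0886), and Chrd, the BMP antagonist chordin (0.0918). For Spry4 they were Cobll1 (0.0487), Slc7a7, an amino acid transporter subunit (0.0724), and Kcnj2, a potassium channel (0.0778). With a prior count of 5 in place of 2, 1 of the 3 neighbours of Fgfr3 was the same. These distances rest on 9 means of the same libraries and are a description.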

How the data were processed

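Messenger RNA selected by poly-T beads was sequenced from 45 libraries, 9 groups of 5. Per the submitters' processing notes the tools named are CASAVA 1.8, STAR 2.5, HTSeq 0.6.1 and DESeq2 2, with genome build mm10. No source used here says whether counting used strand. The authors deposited 9 tables of 2 groups each. They hold raw read counts per gene, as deposited by the authors. They also hold FPKM values made by the authors. The authors' normalised counts, a signal scaled between the libraries of a table, were not used. The authors' log2 fold changes, p-values and adjusted p-values are in the same deposited tables, and only adjusted p-values named as theirs are printed. Libraries in several tables had identical counts (1345730 values compared, 0 unequal), and 24 gene symbols turned into dates were restored by gene ID. FPKM values were not compared between tables and were taken from the first table that listed the gene.

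Samples were grouped by title. Counts were fitted with edgeR 4.0.16 (R 4.3.3): genes by filterByExpr (minimum count 10, total 15), TMM factors, robust quasi-likelihood test and Benjamini-Hochberg adjustment over all genes tested, with a threshold of 0.05. Comparisons with vehicle and between vehicle times used their own 10 libraries, and comparisons of doses and of effects between times used all 45. A standard error is the size of a log2 fold change over the root of its F statistic. CPM uses TMM over all 45 libraries. Depth was 17.54 M to 27.12 M counts. Replicates of a group differed by more than sampling noise (chi-square per degree of freedom 6.357 to 63.31), so none was merged.

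Replicate numbers of the titles were taken as pairing samples where all 5 same-numbered pairs deviated together with a correlation over 0.1, which held for 50 µM against vehicle at 48 h (0.106 to 0.216). The 10 genes, the pathway and marker lists and the motifs were chosen with earlier results of these data known. All 10 genes were tested in every comparison, and each one called is named. Pathway genes are named where called in a comparison with vehicle, at most 5 per comparison, and genes of like pattern are the 3 nearest for each gene spanning at least 1 log2 unit. Alternatives were DESeq2 1.42.0, other scaling factors, other filters, the replicate block, an epidermal covariate (mean log2 CPM of the 12 epidermal markers), other samples in the fit and each library left out.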

Additional observations from a re-analysis of the deposited data

Results flagged for a closer look

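Among the 90 groups of 5 libraries (10 genes in 9 groups), 5 held a library whose gap to the nearest other exceeded Dixon's 95% critical value, where chance flags about 1 in 20 groups, 4.5 here. In vehicle at 3 h the lowest Fgfr1 library held 323.0 CPM against 345 to 348 CPM in the others. With 50 µM at 48 h the highest Spry1 library held 48.25 CPM against 36.6 to 39.9 CPM. With 50 µM at 3 h the lowest Spry2 library held 56.71 CPM against 63.6 to 65.9 CPM. With 10 µM at 48 h the highest Dusp6 library held 59.95 CPM against 41.7 to 46.7 CPM. In vehicle at 24 h the highest Etv4 library, replicate 1, held 21.29 CPM against 11.96 to 13.7 CPM. Replicate 1 also held the most Krt14 of that group, 438 CPM, and a link between Etv4 and epidermal RNA was not tested.

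The effect of 50 µM differed between times, by edgeR's test of the difference itself, for 4 genes. For Fgfr2 the log2 effect was higher than at 3 h by 0.46 at 24 h and by 0.43 at 48 h. For Fgfr3 it was higher at 48 h than at 3 h by 0.45. The difference from 3 h was -0.63 at 24 h and -0.91 at 48 h for Fgf18, and -0.57 at 48 h for Spry1.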

How the results depend on the processing

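No called value of the 10 genes changed sign under an alternative. Of 150 gene and comparison pairs, 43 were called, and of the 834 values of called pairs under alternatives 769 stayed called. The counts that moved most belong to comparisons with few calls. For 10 µM at 3 h the 2 genes called became 0 with median-of-ratios or upper-quartile factors, the stricter filter, the replicate block or the epidermal covariate, 4 without a filter, 14 with DESeq2 and 12 with all 45 libraries. For 10 µM at 24 h the 0 genes called became 2 with upper-quartile factors, 12 without a filter, 143 with the replicate block, 10 with the covariate, 17 with DESeq2 and 5 with all 45 libraries. Of the 10 genes, 1 was then called, Fgfr3, and 2 with the block. For 10 µM at 48 h the 4 genes became 65 without a filter, 58 with the block, 27 with the covariate, 88 with a block from the library codes, 51 with DESeq2 and 19 with all 45 libraries, and of the 10 genes 1 was called, or 2 with the code block. For 50 µM at 3 h the 154 higher and 90 lower genes became, together, 385 without a filter, 374 with the block, 515 with DESeq2 and 457 with all 45 libraries. For vehicle at 48 against 24 h the main fit called 2 of the 10 genes and 1521 of all genes. The 2 became 4 without a filter, with the covariate or with DESeq2, and 1 with the block. The counts of all genes in those fits are not given here, so this change is a description only. For 50 against 10 µM, 111 genes at 3 h became 24 when the 2 groups were fitted alone (1 of the 10 genes became 0) and 208 with DESeq2, 149 at 24 h became 259 with DESeq2, and 4 of the 10 genes at 48 h became 2 in the groups alone. For the effect at 24 h minus 3 h, 118 genes became 178 with the block and 206 with DESeq2, and 2 of the 10 genes became 1 in the groups alone. For 48 h minus 24 h, 0 became 2 with DESeq2. With a prior count of 5, 1 of the 3 genes of pattern like Fgfr3 was shared. The cause of these moves was not tested.

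Leaving out 1 library at a time gave 0 to 7 genes for 10 µM at 3 h, 0 to 5 at 24 h and 0 to 3 at 48 h (0 to 1 of the 10 genes at 24 and at 48 h). It gave 146 to 332 genes for 50 µM at 3 h and 367 to 705 at 24 h (4 to 6 of the 10 genes). It gave 1105 to 1646 genes for vehicle at 48 against 24 h (0 to 4 of the 10 genes). For 50 against 10 µM it gave 69 to 149 genes at 3 h (0 to 1 of the 10), 64 to 130 at 24 h, and 381 to 582 at 48 h (1 to 4 of the 10). For the effect at 24 h minus 3 h it gave 77 to 164 genes (1 to 3 of the 10), and for 48 h minus 24 h 0 to 2.

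With the replicate number as a block, 50 µM at 24 h had 1283 genes in place of 621 and at 48 h 2794 in place of 1594. Spry2 and Etv4 were among the genes that the block added at 24 h. Outside 50 µM against vehicle at 48 h not all 5 same-numbered pairs had a correlation over 0.1, so the rule for pairing was not met. Correlations of same-numbered deviations ran from 0.0351 to 0.22 for 50 µM at 24 h and from 0.0669 to 0.359 for 10 µM at 24 h. For 50 against 10 µM at 24 h they ran from 0.0312 to 0.195. In these comparisons of 24 h each of 5 samples correlated best with its own number, so a pairing that the main fit leaves out is possible there. Elsewhere the correlations ran from -0.147 to 0.376. The library codes of 10 µM at 48 h swap replicates 1 and 2 of the titles. Depth did not limit the 10 genes at the filter. Etv4, with 138 to 467 counts per library, had the widest standard error of the 10 genes with 50 µM at 24 h, 0.18. Fgf9, with 171 to 569 counts, had 0.105 there. What sets these widths was not tested.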
